A study of Mus musculus with 5 samples.

Results

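The Pax family of transcription factors was followed through RNA sequencing of mouse neuroepithelial cells (NECs), the dividing epithelium of the early neural tube. Its members are the 9 genes whose symbol in the expression table is Pax1 to Pax9, out of 21801 genes in all. The study measured total RNA of 5 libraries that the labels place in 1 group as replicates 1 to 5, purified neural progenitor cells in a study of the developing neocortex, with no treatment or genetic change named. The sources used here do not state strain, genotype, age, pooling, the way of purification or whether separate animals gave the replicates, so each p-value speaks to variation among these 5 samples, which may be technical. Levels are FPKM (fragments per kilobase of transcript, scaled to sequencing depth), which is per length and so can be set side by side between genes, and ± is the SD over the 5 libraries (n = 5).

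Pax proteins bind DNA through the paired domain, and differ in what follows it. Pax3, Pax7, Pax4 and Pax6 also carry a whole homeodomain, Pax2, Pax5 and Pax8 a partial one, and Pax1 and Pax9 none. The 4 subfamilies are Pax1 with Pax9, Pax2 with Pax5 and Pax8, Pax3 with Pax7, and Pax4 with Pax6. In the embryo they mark territories: Pax6 the forebrain and eye, Pax3 and Pax7 the dorsal neural tube, neural crest and muscle precursors, Pax2, Pax5 and Pax8 the midbrain-hindbrain boundary, ear, kidney, thyroid and B cells, Pax1 and Pax9 the sclerotome and pharyngeal pouches, and Pax4 the pancreatic islet.

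Because members of a subfamily are close copies, the first question was whether a read of 75 bases could belong to more than 1 of them. No word of 75 bases in any annotated transcript of a Pax gene occurred, on either strand, in a transcript of another Pax gene. Words were shared with genes outside the family: 615 of 9754 in Pax5 (6.31%, with antisense Gm12462 and 5730488B01Rik), 226 of 6337 in Pax8 (3.57%, with Gm13415) and 111 of 4415 in Pax1 (2.51%, with antisense AI646519). Those 4 genes overlap the Pax gene on the opposite strand, were not analysed here, and without strand their reads and those of the Pax gene cannot be told apart. The closest coding windows of 75 bases within each subfamily are shown for 3 pairs, in lower case with the bases that differ in capitals, since they bound how far reads could be exchanged. Pax3 and Pax7 differed at 6 of 75 bases, Pax2 and Pax8 at 7, and Pax6 and Pax4 at 20, and the other pairs (Pax1 with Pax9, Pax2 with Pax5, Pax5 with Pax8) at 8 or 9. Each pair of lines gives the coding strand, 5′ to 3′. The Pax3 window joins exons 1 and 2 (chr1:78195473-78196725, mm10, minus strand), as does that of Pax7 (chr4:139830360-139832887, minus strand), so these spans include an intron. The Pax2 window joins exons 2 and 3 (chr19:44761027-44761745, plus strand) and that of Pax8 exons 3 and 4 (chr2:24443080-24444582, minus strand). Those of Pax6 (exon 4, chr2:105683832-105683906, plus strand) and Pax4 (exon 3, chr6:28446688-28446762, minus strand) lie within 1 exon.
Pax3: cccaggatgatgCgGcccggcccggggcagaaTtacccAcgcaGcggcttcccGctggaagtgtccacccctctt
Pax7: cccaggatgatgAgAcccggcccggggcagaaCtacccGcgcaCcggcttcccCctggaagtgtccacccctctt
Pax2: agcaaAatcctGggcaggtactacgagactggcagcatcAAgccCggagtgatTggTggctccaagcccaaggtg
Pax8: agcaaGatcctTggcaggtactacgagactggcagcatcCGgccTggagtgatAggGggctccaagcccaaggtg
Pax6: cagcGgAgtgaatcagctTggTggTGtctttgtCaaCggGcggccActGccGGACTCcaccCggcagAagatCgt
Pax4: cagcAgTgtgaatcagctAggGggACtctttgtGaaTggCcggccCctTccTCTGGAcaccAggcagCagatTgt

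Replicate 1 stood apart among low genes. It had 18456 genes above 0, against 16275 to 17336 in the other 4 libraries, and 47.1% of the 8723 genes with a mean above 0 and under 1 FPKM were highest in it. Of the 6 Pax genes in that range, Pax1, Pax4 and Pax5 were highest there, a share near that of all such genes.

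The family's RNA in these cells was that of Pax6 and, far behind it, Pax3. Pax6, Pax3 and Pax7 together held 97.8% to 98.5% of the summed FPKM of the 9 genes in each library, Pax6 alone 80.0% to 89.4%. Each gene was tested against a level of 1 FPKM with limma on the log2(FPKM + 1) scale and Benjamini-Hochberg adjustment over the 19706 genes above 0 in at least 1 library. All 9 members passed that filter. 3 members were called above the level (Pax3, Pax6, Pax7), against 52.3% of all genes tested, 5 below it (Pax1, Pax2, Pax4, Pax5, Pax9), against 41.4% of all genes, and Pax8 neither way. The order of mean levels ran Pax6, Pax3, Pax7, Pax8, Pax9, Pax2, Pax5, Pax1, Pax4. The libraries of Pax6 and Pax3 did not overlap, nor did those of Pax3 and Pax7, while every pair of neighbours further down the order overlapped.

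**Figure D1:**
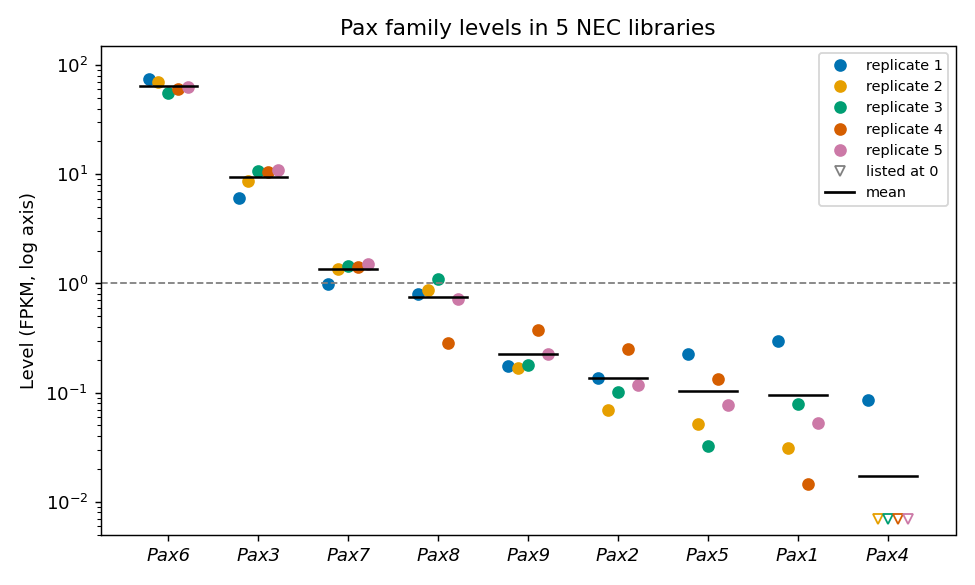
Level of each Pax gene (FPKM, log axis) in the 5 NEC libraries, 1 point per library, ordered by mean (black bar), with 1 FPKM dashed and values listed at 0 drawn as open triangles. Pax6 lies between 55.1 and 74.1 FPKM and Pax3 between 6.10 and 10.95, whereas Pax9, Pax2, Pax5, Pax1 and Pax4 stay under 0.4.

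Pax6 (ENSMUSG00000027168, chr2:105668900-105697364 on mm10, plus strand) directs the identity of forebrain progenitors and of the eye. Its level was 74.1, 70.3, 55.1, 60.3 and 63.3 FPKM in replicates 1 to 5, on the order of 2929 to 4739 reads a library. Replicates 1 and 2 were the highest and replicate 3 the lowest, a range of 1.34-fold. Its log2(FPKM + 1) exceeded that of 1 FPKM by 5.03 with an SE of 0.07 (limma adjusted p = 1.1e-10), and its mean of 64.6 ± 7.64 FPKM ranked above 90.7% of all genes in the table. The gene has 26 annotated transcripts and its antisense neighbour Pax6os1 covers its 5′ end. The table gives 1 value per gene, so isoforms that differ in the paired domain could not be told apart.

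Its relative Pax4 (ENSMUSG00000029706, chr6:28442334-28449353, minus strand), a factor of insulin-producing cells, had 0.0858 FPKM in replicate 1, and the 4 remaining libraries list it at 0. It was called below the level (difference -0.98, limma adjusted p = 3.4e-09). At the median coding transcript of 1225 bases that is about 2.01 reads. Pax6 minus Pax4 was 6.005 ± 0.138 on the log2 scale, with Pax6 higher in 5 of 5.

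Pax3 (ENSMUSG00000004872, chr1:78101267-78197134, minus strand), which acts in the dorsal neural tube and neural crest, stood at 6.10, 8.71, 10.8, 10.6 and 10.95 FPKM in replicates 1 to 5. Replicate 1 was the lowest and replicate 2 the next, while the other 3 lay close together. That is roughly 455 to 985 reads a library. The mean of 9.44 ± 2.08 FPKM was 2.36 above the level (SE 0.12, limma adjusted p = 3.47e-07), and its SD on the log2 scale was 0.32. The same SD was 0.17 for Pax6 and 0.13 for Pax7, and its median was 0.16 over 10983 genes whose mean reached 1 FPKM. The added 1 shrinks this SD for genes near 1 FPKM, so the low value of Pax7 does not show a steadier gene. In FPKM the highest library of Pax7 was 1.51-fold the lowest, against 1.34-fold for Pax6.

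Pax7 (ENSMUSG00000028736, chr4:139737062-139833528, minus strand), the partner of Pax3 in the dorsal neural tube and in muscle stem cells, had 0.998, 1.36, 1.45, 1.41 and 1.51 FPKM, some 81.7 to 144 reads. Replicate 1 was again the lowest, and the only library under 1 FPKM. At a mean of 1.34 ± 0.20 the call above the level was narrow (difference 0.22, SE 0.08, limma adjusted p = 0.0233): it was lost without replicate 2 (adjusted p = 0.0558), 3 (0.0629), 4 (0.0665) or 5 (0.0802), and kept without replicate 1. Pax3 minus Pax7 was 2.13 ± 0.19 (log2), positive in 5 of 5 libraries, and the FPKM ratio of Pax3 to Pax7 ran from 6.11 in replicate 1 to 7.501 in replicate 4.

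Pax8 (ENSMUSG00000026976, chr2:24420560-24475599, minus strand), a factor of thyroid, kidney and ear, led the low members at 0.794, 0.872, 1.11, 0.287 and 0.728 FPKM. Replicate 4 was the lowest and replicate 3 the highest, a range of 3.85-fold on roughly 8.45 to 23.6 reads. The mean of 0.76 ± 0.30 was called neither way (difference -0.20, SE 0.10, limma adjusted p = 0.085), though without replicate 3 it was called below (difference -0.27, adjusted p = 0.0351). Without replicate 4 the difference was -0.10 (adjusted p = 0.266), and with libraries scaled to a common sum -0.06 (adjusted p = 0.665).

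Its relatives were lower. Pax2 (ENSMUSG00000004231, chr19:44756045-44837871, plus strand), of optic stalk, kidney and midbrain-hindbrain boundary, had 0.137, 0.0693, 0.1005, 0.253 and 0.117 FPKM. Pax5 (ENSMUSG00000014030, chr4:44524757-44710487, minus strand), the B-cell member, had 0.224, 0.0517, 0.0327, 0.134 and 0.0775 FPKM. Pax2 was highest in replicate 4 and Pax5 in replicate 1, and the ranges of the 2 genes overlapped. Both were called below the level (differences -0.82 and -0.86, limma adjusted p = 1.32e-07 and 1.53e-07). Pax8 exceeded each in 5 of 5 libraries, the differences of Pax2 minus Pax8 and Pax5 minus Pax8 being -0.61 ± 0.34 and -0.66 ± 0.32 on the log2 scale. Pax2 minus Pax5 was 0.04 ± 0.09, with Pax2 higher in 4 of 5 (two-sided exact sign-flip permutation test, p = 0.375), and 0.08 without replicate 1 or 0.02 without replicate 4.

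Pax9 (ENSMUSG00000001497, chr12:56691767-56712822, plus strand), needed for pharyngeal pouches and teeth, was measured at 0.176, 0.169, 0.180, 0.377 and 0.226 FPKM. Replicate 4 stood apart above the other 4. Its 3′ end overlaps Slc25a21 on the opposite strand, a mitochondrial carrier gene at 1.51 ± 0.33 FPKM, and 115 of its 5055 words of 75 bases (2.27%) occur there too. Counting by strand is not stated, so reads of that stretch could not be assigned to either gene.

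Pax1 (ENSMUSG00000037034, chr2:147361925-147393295, plus strand), a sclerotome factor, had 0.296, 0.0313, 0.0794, 0.0144 and 0.0531 FPKM. Multiplied by each library's implied total and by its longest coding transcript (2643 bases, less 200), these values came to 16.5, 2.00, 3.99, 1.00 and 3.00 reads, so all libraries but replicate 1 rested on 1 to 4 reads. At so few reads no difference among those 4 could be detected. Pax1 and Pax9 were both called below 1 FPKM (differences -0.88 and -0.71, limma adjusted p = 9.46e-07 and 8.68e-07). Pax1 minus Pax9 was -0.17 ± 0.21 on the log2 scale, with Pax9 higher in 4 of 5 libraries (two-sided exact sign-flip permutation test, p = 0.188). Without replicate 4 it was -0.10.

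Within-library contrasts between members numbered 8, the 6 subfamily pairs plus Pax6 minus Pax3 and Pax6 minus Pax2. Pax6 minus Pax3 was 2.67 ± 0.47 and Pax6 minus Pax2 5.85 ± 0.21 on the log2(FPKM + 1) scale, both with Pax6 higher in 5 of 5 libraries. 6 of the 8 contrasts had 1 direction in 5 of 5 libraries, each with a two-sided exact sign-flip permutation p = 0.062 and adjusted p = 0.0833. That p is the smallest that 5 libraries allow, so no contrast could pass 0.05. The other 2, Pax1 minus Pax9 and Pax2 minus Pax5, had adjusted p = 0.214 and 0.375.

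Pax6 and Pax3 differed in which libraries were high. The ratio of Pax6 to Pax3 in FPKM was 12.2 in replicate 1, 8.07 in replicate 2, 5.10 in replicate 3, 5.68 in replicate 4 and 5.78 in replicate 5, a ratio that rescaling a library does not move. Replicate 1 was the highest for Pax6, as for 16.4% of the genes whose mean reached 1 FPKM, and the lowest for Pax3 and Pax7, as for 35.0% of them. Replicate 3 was the lowest for Pax6 (20.7% of genes) and replicate 5 the highest for Pax3 and Pax7 (12.2%). These places of Pax6, Pax3 and Pax7 were the same after rescaling each library to a common sum or by its median ratio.

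Of the marker lists for other cells, that of mesenchyme was, by summed FPKM and like Pax3, lowest in replicate 1, next in replicate 2 and higher in the other 3. Shares called above 1 FPKM are to be read against the 52.3% of all genes. The mesenchyme list (Lum, Alx1, Pdgfra and others) had 10 of 12 members called above 1 FPKM, a summed level of 49.0 FPKM in replicate 1, 85.5 in replicate 2 and 145 to 182 in the other 3, and no member at 0 in all libraries. Of its 11 members whose mean reached 1 FPKM, 10 were lowest in replicate 1, where 35.0% of all such genes were lowest. Likewise 10 were highest in replicate 3, where 21.9% of all such genes were highest. Lum, a matrix proteoglycan, ran from 12.1 FPKM in replicate 1 to 66.1 in replicate 3, and Alx1, a cranial mesenchyme factor, from 7.86 to 36.3. The neural crest list (4 of 7 above, near the share of all genes) summed to 19.0 FPKM in replicate 1 and 34.4 in replicate 3. Tfap2b had 8.24 and 18.7 FPKM in these libraries and Ednrb, going the other way, 4.37 and 2.35. The defining crest markers Sox10 (0.0760 to 0.367 FPKM) and Foxd3 (0.0199 in replicate 5, the rest listed at 0) were near 0. The surface ectoderm list (7 of 9 above) summed to 119 to 184 FPKM, highest in replicate 2 and lowest in replicate 1, and was below its mean in replicates 4 and 5, where Pax3 was high. The neural progenitor list, 11 of 12 above 1 FPKM and led by Prom1 (70.7 to 97.6 FPKM), summed to 241 FPKM in replicate 3 and 273 to 282 in the others. Its median gene was at 10.9 FPKM, against 7.26 for mesenchyme and 9.16 for surface ectoderm. These counts and levels therefore do not set the label apart from those cells. The neuron list (6 of 10 above, near the share of all genes) summed to 93.3 FPKM in replicate 3 and to 132 in replicate 2. Endothelium (1 of 5 above) summed to 4.97, 5.15, 5.23, 7.21 and 7.97 FPKM in replicates 1 to 5. Its sums in replicates 1 to 3 lay close together, whereas Pax3 was high in replicate 3. By median deviation endothelium was lower in replicate 3 (-0.22) than in replicate 2 (-0.19). Blood and macrophages (0 of 7 above, Aif1 listed at 0) summed to 1.21 to 4.45. The part of these cells in the Pax3 and Pax6 values was not tested, and in bulk RNA fewer cells of a type and less RNA per cell cannot be told apart.

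**Figure D2:**
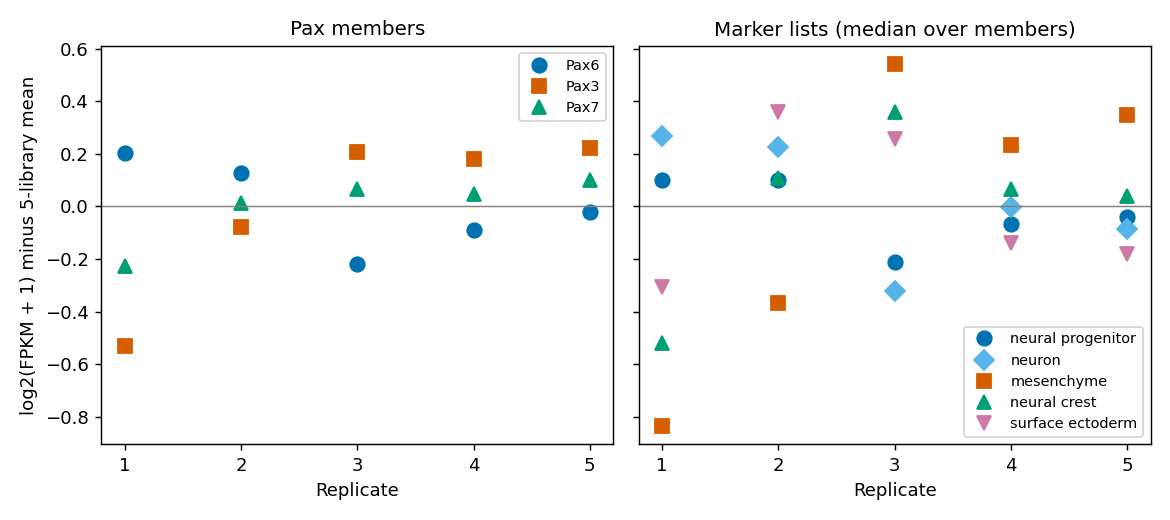
Difference of log2(FPKM + 1) from the gene's own 5-library mean, by replicate: left, Pax6, Pax3 and Pax7; right, the median over the members of each marker list whose mean reached 1 FPKM. In replicate 1 Pax6 is at 0.20, Pax3 at -0.53 and Pax7 at -0.23, beside -0.83 for mesenchyme and 0.10 for neural progenitors.

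By the root mean square difference of these deviations over the 5 libraries, searched among 10982 genes, the genes most like Pax3 were Mab21l1 (0.0257), Ntf3 (0.0305) and Lrrc34 (0.0339). The neurotrophin gene Ntf3 stood at 5.10, 7.56, 8.99, 9.44 and 9.43 FPKM, lowest in replicate 1 like Pax3. Those most like Pax6 were Rimklb (0.0214), Csad (0.0257) and BC026585 (0.0276), and those most like Pax7 were Dhrs7b (0.0148), Tfdp1 (0.0178) and Aimp1 (0.0179). On this scale the added 1 shrinks the changes of genes near 1 FPKM. Pax7 (0.998 to 1.51 FPKM) was thus matched to genes that varied less in proportion, such as Aimp1 (131 to 164 FPKM). Pax3 (6.10 to 10.95 FPKM) was matched to Lrrc34 (0.647 to 1.81 FPKM), which varied more. The points are 5 libraries of 1 group, and these matches are a description.

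Most genes known to work with Pax factors were called above 1 FPKM. Eya3 and Eya2, coactivators of the transcription network that Pax6 and its relatives join in eye, ear and muscle, were at 43.4 to 56.9 and 20.2 ± 4.90 FPKM. Among 19 cofactors and modifiers 17 were above and 2 below, led by the homeodomain partner Meis1 (56.3 ± 10.2 FPKM) and by Paxbp1, which binds Pax3 and Pax7 (51.1 ± 9.28). The Groucho corepressor Tle2 was the lowest at 0.26 ± 0.20. The shares for all genes tested, again, were 52.3% above and 41.4% below, with a median level of 1.79 FPKM, against 7.39 for the cofactors.

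Genes known to be regulated by Pax6 in cortical progenitors were split, to be read beside 52.3% of all genes tested above the level and 41.4% below. Above the level were 8 of 11, among them the cell cycle kinase Cdk4 (2223 ± 47.4 FPKM) and the chromatin protein Hmga2 (79.8 ± 6.63). The 3 below were the neurogenic factors Neurog2, listed at 0.0432, 0, 0, 0.0696 and 0.0641 FPKM, Eomes and Neurod1, so Pax6 was high in libraries where these were close to 0. Cdk4 is used by every dividing cell, and Tubb3, also on this list, by neurons.

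Of 10 eye field and optic vesicle genes 5 were above and 5 below, near the shares of all genes tested (52.3% and 41.4%). Otx2 (85.1 ± 12.9 FPKM) and Lhx2 (16.8 ± 4.59), early forebrain and eye homeobox factors, were the highest. All 5 whose mean reached 1 FPKM, and Pax6, were highest in replicate 1. So were 16.4% of all such genes and 5 of 11 such genes of the neural progenitor list. Lhx2 had 22.9 FPKM in replicate 1 against 13.0 to 20.5 in the others. In the lens and nasal placode list 5 of 10 were above and 3 below, with Dlx5 at 25.1 ± 9.18 FPKM and Cryab at 6.24 ± 1.56, while the lens factor Pitx3 was listed at 0 in all 5 libraries.

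Counts in the lists for the territories of the other subfamilies are to be read beside 52.3% of all genes tested above the level and 41.4% below. Of 14 dorsal neural tube and neural crest genes 7 were above and 5 below, shares near those of all genes, led by Sox9 (19.2 ± 4.12 FPKM) and Tfap2b (13.3 ± 3.82). In the midbrain-hindbrain boundary list, where Pax2, Pax5 and Pax8 act, 2 of 8 were above (Fgf17 at 4.00 ± 0.85 and Spry4 at 3.63 ± 1.29 FPKM) and 6 below, with En2 at no more than 0.0160. For kidney, thyroid and inner ear 1 of 10 was above (Sall1, 5.54 ± 0.38 FPKM) and 6 below, and Gata3 was called neither way at 0.77 ± 0.25. None of 6 early muscle genes, 11 sclerotome and pharyngeal pouch genes or 10 pancreatic islet genes was above the level, and 5, 7 and 8 were below. Met (0.62 ± 0.15 FPKM) was the highest of the muscle genes and Foxc1 (1.65 ± 0.745, called neither way) of the sclerotome and pouch genes, and Tcf15, Gcm2 and Gcg were listed at 0 in all libraries.

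**Figure D3:**
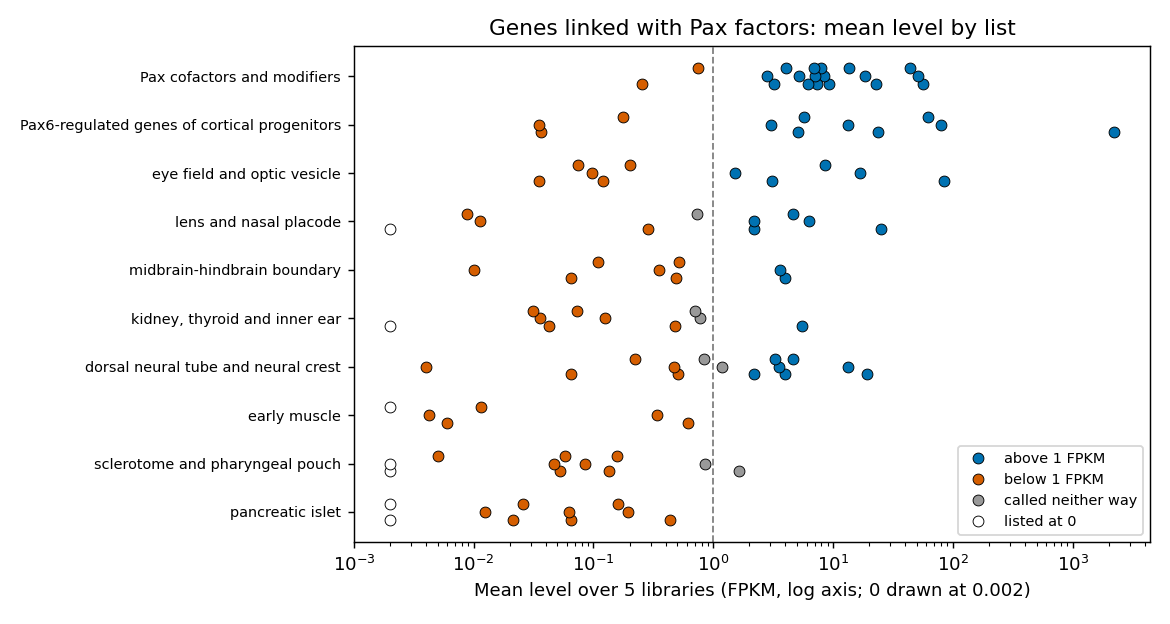
Mean level over the 5 libraries (FPKM, log axis) of each gene in 10 lists tied to Pax factors, 1 point per gene, coloured by the limma call against 1 FPKM (dashed). Of the 19 cofactors and modifiers 17 lie to the right of the line, and no early muscle or pancreatic islet gene does.

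Low Pax genes had both high and low neighbours on the chromosome. Beside Pax6 lie Elp4, whose introns hold distant enhancers of Pax6, at 24.9 ± 3.29 FPKM and Rcn1 at 10.3 ± 1.98. Beside Pax3 lie Epha4 (13.8 ± 1.04) and Sgpp2 (8.08 ± 3.04 FPKM). Around low members, Pax5 sits between the mitotic kinase gene Melk (91.6 ± 8.77) and Zcchc7 (20.4 ± 2.85), and Pax2 between Hif1an (23.6 ± 2.30) and Fam178a (17.3 ± 1.08 FPKM). Pax7 lies between Tas1r2, listed at 0 throughout, and Klhdc7a at 0.17 ± 0.07 FPKM. The ventral factors Nkx2-2 and Foxa2 on either side of Pax1 were at 0.16 ± 0.13 and 0.15 ± 0.10 FPKM, both highest in replicate 1 as Pax1 was, and Nkx2-9 next to Pax9 had 2.39 FPKM in replicate 1 and 0.265 to 0.539 elsewhere. As given above, 47.1% of genes this low were highest in replicate 1.

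**Figure D4:**
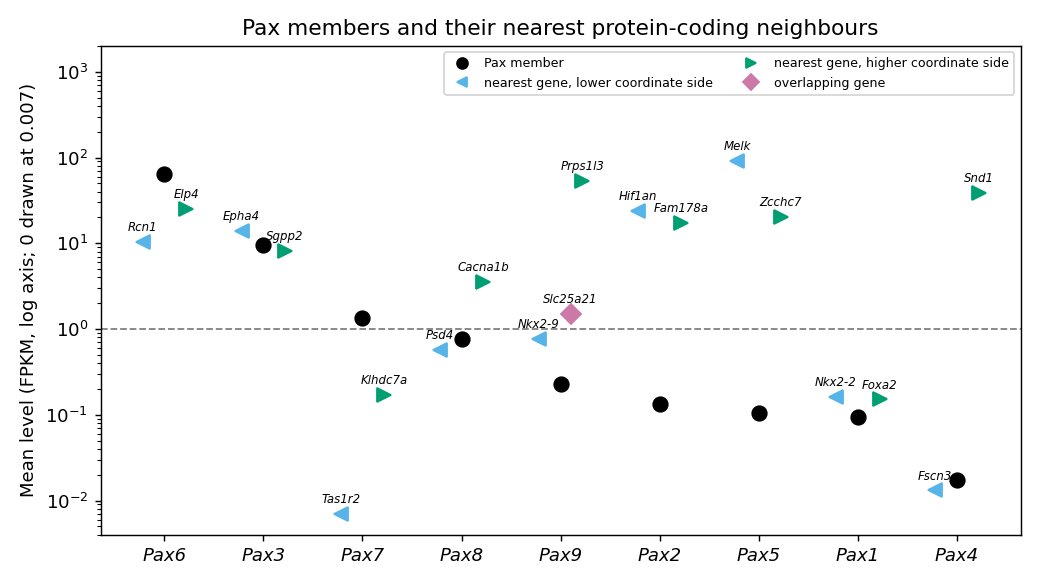
Mean level (FPKM, log axis) of each Pax gene (black) with the nearest protein-coding gene of the table on either side and the 1 overlapping gene, Slc25a21 at Pax9. Pax5 at 0.10 FPKM stands between genes at 91.6 and 20.4, and Pax6 at 64.6 between genes at 10.3 and 24.9.

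Promoters from RefSeq (GRCm38.p6) were matched for 7 of the 9 genes, with 10 start sites, and the 250 bases before each were searched on both strands. CG dinucleotides numbered 5 to 25, against a median of 6 over 32851 promoters. Pax6 had 15 at each of 2 start sites, a number that 27.3% of all promoters reach, while Pax5, at 0.10 FPKM, had 19 and Pax2, at 0.14 FPKM, had 5, 20 and 25. Pax8 had 6. The CCAAT box (CCAAT or its reverse complement ATTGG) occurred before 3 of the 10 starts (Pax1, Pax6, Pax8), against 33.8% of all promoters. TATAAA (or TTTATA) occurred before none, against 12.4%. Promoters of Pax6 (first start, chr2:105668646-105668895, plus strand, within the antisense gene Pax6os1), Pax5 (chr4:44710695-44710944, minus strand) and Pax8 (chr2:24475600-24475849, minus strand, within Gm13415) are shown because their levels differ widely, 5′ to 3′ with each CG in capitals. None of the 3 stretches overlaps an annotated exon of a Pax gene.
Pax6: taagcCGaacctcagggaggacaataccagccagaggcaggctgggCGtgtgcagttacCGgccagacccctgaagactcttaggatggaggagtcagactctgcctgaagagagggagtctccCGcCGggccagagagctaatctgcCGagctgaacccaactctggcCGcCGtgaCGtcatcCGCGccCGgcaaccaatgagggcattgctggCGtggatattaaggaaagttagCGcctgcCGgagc
Pax5: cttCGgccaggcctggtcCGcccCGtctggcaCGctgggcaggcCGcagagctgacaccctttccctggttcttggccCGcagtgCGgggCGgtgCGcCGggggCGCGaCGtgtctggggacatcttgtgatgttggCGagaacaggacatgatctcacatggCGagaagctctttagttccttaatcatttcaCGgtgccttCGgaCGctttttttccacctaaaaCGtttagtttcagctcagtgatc
Pax8: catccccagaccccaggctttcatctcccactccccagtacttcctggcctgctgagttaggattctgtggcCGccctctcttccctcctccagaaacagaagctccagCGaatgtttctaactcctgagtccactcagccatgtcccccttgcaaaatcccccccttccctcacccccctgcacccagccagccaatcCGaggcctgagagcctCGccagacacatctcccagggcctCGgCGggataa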

How the data were processed

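Complete cDNA primed with poly-dT and extended by template switching was amplified, sheared and read from 1 end for 75 bases, per the labels' protocols. No molecular identifiers or strand are described. The authors deposited 1 table of FPKM values per gene and library. Cuffdiff 2.2.1, TopHat2 2.0.11, cutadapt and CASAVA 1.8 appear in the submitters' processing notes along with mm10, without their roles. The annotation release is not stated there. Each column was matched to its sample by replicate number.

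FPKM were transformed as log2(FPKM + 1), which understates differences of low genes. limma 3.58.1 (R 4.3.3) tested each gene's mean over the 5 libraries against 1 FPKM, two-sided with a variance trend, at a Benjamini-Hochberg adjusted p under 0.05 over 19706 genes. Another 2095 genes were 0 in all libraries, and since a 0 can be a failed estimate it is given as listed at 0. In simulated data on 19706 genes, 3.75% of 2000 genes set at the level were called, and 98%, 92%, 88% and 100% of 50 genes each shifted by -0.8, -0.4, 0.4 and 0.8 (log2). The noise was independent and normal, and the genes set or shifted kept SDs from a wide range of levels. These rates therefore need not hold for genes near 0. Contrasts were differences within a library, tested over 32 sign patterns. Depth came from single-transcript genes over 800 bases, at values under 0.15 FPKM. Each value was taken as 1 read on the transcript length less 200 bases, and the commonest implied total was kept. This gave 20.6 to 28.4 M reads a library, so reads per gene are approximate. FPKM summed to 747034 to 847625 a library. Coordinates and transcripts are from GENCODE M21 (mm10).

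The members, lists, contrasts and alternatives were chosen with earlier results of these data known. Named genes are all members, the 2 highest and the lowest of each list linked with Pax factors, the 2 highest of each marker list, chromosomal neighbours, and the 3 genes most like each member with a mean of at least 1 FPKM. Pdgfra, Sox10, Ednrb, Eomes, Neurod1 and Aif1 were added after their values were seen. Some genes that this rule names are not reported here.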

Additional observations from a re-analysis of the deposited data

Results flagged for a closer look

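For 9 of 85 genes and contrasts examined, 1 library lay further from the other 4 than Dixon's criterion for 5 values allows (a gap over 0.710 of the range). Chance gives such a gap in about 5% of groups, but that rate does not apply to Pax4 and Foxd3: each is above 0 in 1 library, so its gap is the whole range by construction. Among the Pax genes these were Pax1 in replicate 1 (0.296 FPKM, the next 0.0794), Pax4 in replicate 1 (0.0858 FPKM, the others listed at 0) and Pax9 in replicate 4 (0.377 FPKM, the next 0.226). Pax1 and Pax4 rest on few reads, and 47.1% of genes under 1 FPKM were highest in replicate 1.

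Among chromosomal neighbours, Nkx2-9 beside Pax9 was high in replicate 1 (2.39 FPKM, the next 0.539), Psd4 beside Pax8 in replicate 2 (1.62 FPKM, the next 0.516) and Hif1an beside Pax2 in replicate 2 (27.6 FPKM, the next 23.5), and Klhdc7a beside Pax7 was low in replicate 4 (0.0499 FPKM, the next 0.182). Foxd3, a neural crest factor, had 0.0199 FPKM in replicate 5 alone. Tfdp1, found by its likeness to Pax7, was low in replicate 1 (94.2 FPKM, the next 109).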

How the results depend on the processing

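Calls were repeated with other pseudocounts (0.5, 0.1), with libraries brought to a common sum or scaled by median ratios, against 0.5 or 2 FPKM, under a stricter filter or none, with limma's variance untrended or robust, and without each library. With genes under a mean of 0.1 FPKM removed, fewer were tested: 3495 of all genes, 3 Pax members (Pax1 and Pax4 were not tested) and 22 genes of the lists linked with Pax factors were called below 1 FPKM. Against 2 FPKM Pax7 turned from above to called below (-0.36, limma adjusted p = 0.00244) and Pax8 was called below (-0.79), so that 2 members were above and 7 below. Against 0.5 FPKM Pax8 lay above the level (0.21), not called. The calls of Pax2, Pax3, Pax5, Pax6 and Pax9 and the direction of all 8 contrasts held under each alternative run on them, but their sizes did not: with a pseudocount of 0.1 Pax1 minus Pax9 was -0.86, Pax2 minus Pax5 0.24, Pax2 minus Pax8 -1.82, Pax5 minus Pax8 -2.06 and Pax6 minus Pax4 9.15. Leaving out 1 library moved the count of members above from 3 to between 2 and 3 and of members below from 5 to between 4 and 6, and Pax4, 0 in all libraries without replicate 1, was then not tested. With 4 libraries the smallest p of a contrast is 0.125. No paired analysis was possible because the series has 1 group, so no replicate number is shared between groups. The contrasts compare members within a library. The lowest Pax1 value is that of about 1 read.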
